A study of Homo sapiens with 3 samples.

Results

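The 8 genes described here encode secreted, matrix and cell surface proteins linked to invasion: the protease urokinase (PLAU) and its receptor (PLAUR), the matrix metalloproteinases MMP7 and MMP14, the protease inhibitor TIMP1, the matrix proteins tenascin C (TNC) and laminin beta-3 (LAMB3), and the membrane protein TM4SF1. They are 8 of the 19775 genes with a probe set of exactly 1 gene symbol on these arrays, and all 20 probe sets with one of these symbols were taken. The genes were chosen with their signals in these samples known, so their values are descriptions and carry no test. RNA was measured on Affymetrix human arrays in colorectal cancer cells, with 3 arrays and 1 array per group. The control cells had been infected with an empty-vector virus, the LATS2 cells with a virus for full length LATS2, a kinase of the Hippo pathway, and the LATS2N cells with a virus for LATS2N(1-625), residues 1 to 625 of that protein. The sample labels name the line as SW620 and the series' design text names it as SW480, and the design text says that expression was stable. Each group is 1 line of infected cells, grown in DMEM with 10% FBS in 5% CO2, and whether it was a clone or a pool is not given in the sources used here.

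Urokinase is secreted as a proenzyme, is held at the cell surface by its receptor and turns plasminogen into plasmin, which degrades fibrin and other matrix proteins and can activate metalloproteinases. MMP14 is a membrane-anchored metalloproteinase that cleaves fibrillar collagen and activates pro-MMP2, MMP7 is a small secreted metalloproteinase of epithelial cells, and TIMP1 inhibits many metalloproteinases. Tenascin C is a matrix glycoprotein that is scarce in most adult tissue and raised in many carcinomas, and laminin beta-3 is a chain of the basement membrane protein laminin-332.

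The 2 genes with the clearest lower signal on the LATS2 array were TNC, 2.93-fold lower than control (1241 against 3636), and TM4SF1, 2.73-fold lower (288.5 against 787.6). They parted on the LATS2N array, where TNC was 1.97-fold lower than control and TM4SF1 was 1.34-fold higher. PLAU was a dim gene at opposite sides of control, 1.90-fold lower with LATS2 and 1.98-fold higher with LATS2N. The signals of MMP14 differed by at most 1.10-fold between arrays at its brightest probe set, and MMP7 was above the floor on the LATS2 array only. With 1 array per group there is no spread between replicates, and none of these differences has a replicate check. The error that could be measured is the spread between pairs of probe sets for 1 gene, given below as an SD of log2 ratios; it covers noise between probe sets and not differences between cultures. In bulk RNA, fewer cells of a type and less RNA per cell cannot be told apart.

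Signals are MAS5 intensities on a linear scale, and those below the floor of 50.5, the median of all signals on the 3 arrays, were set to it before a ratio was taken. A gene was called lower or higher at a 2-fold ratio, by size alone. The median signal was 49.4 to 51.1 on the 3 arrays. Of 10 epithelial markers, 9 or 10 were above the floor on each array, with a summed signal from 124455 to 132031, carried by keratins and EPCAM. Within that list CDH1, the gene of E-cadherin, read 4421, 2792 and 3567 with empty vector, LATS2 and LATS2N, 1.58-fold lower with LATS2, and VIL1 was 1.27-fold lower. KRT20 was dim, at 108.5 to 126.8, and CEACAM5 was below the floor on the control and LATS2 arrays. Of 8 fibroblast markers, 2 to 4 were above the floor on an array. Their summed signal was 2020, 2582 and 2451 in control, LATS2 and LATS2N cells. Most of it came from LUM and COL1A1, and COL1A2, COL3A1 and PDGFRB were below the floor on every array. The COL1A1 signal came from 1 probe set marked for possible shared targets, and its other probe sets were below the floor on every array. The bright LUM probe set carries the same mark. A dimmer LUM probe set without it was lowest with LATS2, at 112.8, 97.9 and 109.8 in the same order of cells. Without marked probe sets the median log2 ratio of the fibroblast list for LATS2 against control was -0.20, in place of 0.31. Leukocyte markers (5 of 6 with a probe set) had 1 or 2 above the floor on an array and a summed signal of 221.1 to 246.4, with PTPRC below the floor on every array, and of 5 endothelial markers only PECAM1 was above it. Their summed signal was 211.0 in control cells, 121.6 with LATS2 and 142.9 with LATS2N. PECAM1 was 1.67-fold lower with LATS2 at its brightest probe set. Another PECAM1 probe set read 59.3, 44.3 and 4.1 with empty vector, LATS2 and LATS2N. A further one ran the other way, at 36.8, 62.1 and 69.7. With the median over probe sets, the endothelial list had a median log2 ratio of 0 for LATS2 against control, in place of -0.74. The part of these markers in the results below was not tested. For LATS2 itself, the 2 probe sets above the floor gave 205.7 and 385.2 in control cells, 219.2 and 377.1 with LATS2, and 219.1 and 409.2 with LATS2N; which part of the transcript they read is not known here, so they do not check the labels.

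**Figure D1:**
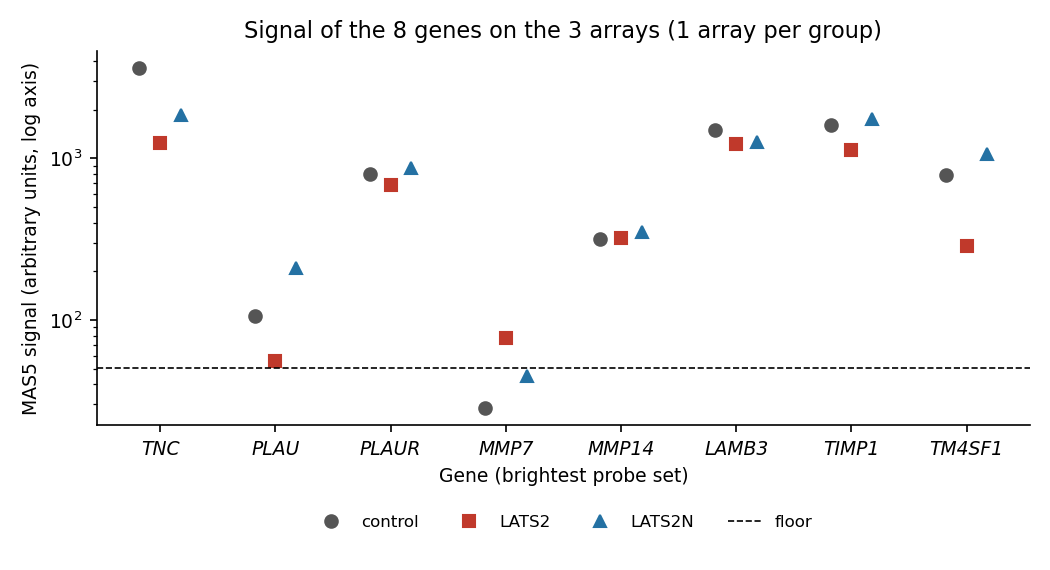
MAS5 signal (log axis) of the brightest probe set of each of the 8 genes on the control (circle), LATS2 (square) and LATS2N (triangle) arrays, 1 point per array; the dashed line is the floor of 50.5. The LATS2 point is the lowest of the 3 for TNC, PLAU, PLAUR, LAMB3, TIMP1 and TM4SF1, and signals of different genes are not comparable.

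The start sites of the genes with the largest log2 ratios, of either sign, for LATS2 against control are shown for their regulatory sequence. TNC, TM4SF1 and PLAU were lower on the LATS2 array and MMP7 was higher there, by a ratio that rests on the floor. The sequences are the 250 bases before the annotated start, from RefSeq on GRCh38.p14, read 5′ to 3′ on the gene's strand. They lie at chr9:115118158-115118407 (minus strand) for TNC, chr3:149377650-149377899 (minus strand) for TM4SF1, chr10:73910882-73911131 (plus strand) for PLAU and chr11:102530748-102530997 (minus strand) for MMP7. PLAU has another start upstream in the table, whose window is not printed. Capitals mark matches, on either strand, to the letters bound by AP-1 (TGANTCA), by TEAD factors, the partners of YAP and TAZ (GGAATG), and by TCF factors of Wnt signalling (CTTTGA or CTTTGT).
TNC: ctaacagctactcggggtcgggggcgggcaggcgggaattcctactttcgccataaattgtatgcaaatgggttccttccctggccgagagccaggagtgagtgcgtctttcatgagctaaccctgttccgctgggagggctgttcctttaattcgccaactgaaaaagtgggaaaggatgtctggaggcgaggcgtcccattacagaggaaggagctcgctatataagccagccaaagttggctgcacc
TM4SF1: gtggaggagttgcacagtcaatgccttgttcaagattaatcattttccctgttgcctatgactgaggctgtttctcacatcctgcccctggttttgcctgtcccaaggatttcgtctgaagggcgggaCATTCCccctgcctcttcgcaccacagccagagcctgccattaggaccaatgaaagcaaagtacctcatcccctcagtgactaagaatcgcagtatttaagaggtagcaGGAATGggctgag
PLAU: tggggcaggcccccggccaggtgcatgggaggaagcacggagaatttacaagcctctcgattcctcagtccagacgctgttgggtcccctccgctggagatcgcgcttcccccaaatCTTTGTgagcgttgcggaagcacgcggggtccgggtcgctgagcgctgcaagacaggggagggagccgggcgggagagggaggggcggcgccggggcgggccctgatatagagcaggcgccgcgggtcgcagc
MMP7: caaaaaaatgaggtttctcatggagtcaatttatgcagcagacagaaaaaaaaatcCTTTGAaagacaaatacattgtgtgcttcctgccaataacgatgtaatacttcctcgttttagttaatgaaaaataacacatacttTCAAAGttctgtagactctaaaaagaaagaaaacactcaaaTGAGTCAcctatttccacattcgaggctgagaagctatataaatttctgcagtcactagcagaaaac
All 8 genes were found in the promoter table, with 11 windows. The AP-1 letters were in 3 of the 11 windows, those of PLAUR, MMP7 and 1 of the 3 LAMB3 windows, against 6.57% of all 35093 windows. In MMP7 the match starts 67 bases before the start and reads TGAGTCA, and in PLAUR the same letters start 186 bases before it. The TEAD letters were in the TM4SF1 window only, at 122 and 13 bases before the start, against 11.9% of all windows. The TCF letters were in 4 windows, both of PLAU, that of MMP7 and 1 of LAMB3, against 22.8% of all. The TNC window held no match to any of the 3 sets of letters. A match is a description of the sequence, and factor binding was not measured.

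PLAU, the urokinase gene, gave 105.3 in control cells, 55.4 with LATS2 and 208.4 with LATS2N. The LATS2 value lay just above the floor, and the LATS2N value was the highest of the 3. Its log2 ratio was -0.93 for LATS2 against control and 0.99 for LATS2N against control, just short of the call on each side, and LATS2 against LATS2N, where it was called lower, gave -1.91 (3.76-fold). At these signals the SD between probe sets was 0.44, 0.36 and 0.51 for the 3 comparisons, so the ratios came to 2.10, 2.77 and 3.75 SDs. The other PLAU probe set read 52.3, 40.4 and 63.6 with empty vector, LATS2 and LATS2N, the same order at signals around the floor, with a log2 ratio of -0.33 for LATS2 against LATS2N. PLAU ranked 7 from the lowest of 13175 genes in that comparison. Both of its probe sets carry a suffix that marks possible shared targets, and no value is left without them.

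PLAUR, the glycolipid-anchored urokinase receptor, kept that order in all 3 of its probe sets. The brightest gave 794.3 in control cells, 685.7 with LATS2 and 874.9 with LATS2N, the next read 394.9, 240.0 and 452.6, and the dimmest read 264.0, 191.1 and 306.0. The LATS2 array was the lowest and the LATS2N array the highest in each. The size differed by probe set: LATS2 was 1.16-fold, 1.65-fold and 1.38-fold lower than control, in that order, and none reached the call. The LATS2N array was 1.10-fold to 1.16-fold higher than control. At the brightest probe set the log2 ratio of -0.21 for LATS2 against control was 1.18 SDs between probe sets, and -0.35 for LATS2 against LATS2N was 2.25 SDs. That probe set and the next also carry the suffix for possible shared targets. The dimmest, which does not, gave -0.47 and -0.68 for the same comparisons.

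The rest of the plasminogen system lay near control on the LATS2 array. Of 12 listed genes, 9 had a probe set with 1 symbol and 7 reached the floor. None was called in any comparison. At most 1.00% of all genes were called in either direction of a comparison, so the absence of calls in this or a later list says little. The median log2 ratio of these 7 genes was -0.01 for LATS2 against control, 0.43 for LATS2N against control and -0.31 for LATS2 against LATS2N. Over all genes it was 0.03, 0.02 and 0.01. The bright members were ANXA2 and S100A10, which form a cell surface complex that binds plasminogen: ANXA2 read 21909, 21267 and 26417 with empty vector, LATS2 and LATS2N, and S100A10 read 23773, 23544 and 27112. SERPINE2, an inhibitor of urokinase and thrombin, chosen here after its values were seen, read 257.7, 290.7 and 487.1, so its LATS2N value was 1.89-fold above control. PLGRKT, a plasminogen receptor chosen in the same way, was 1.36-fold higher than control on the LATS2 array and 1.37-fold higher on the LATS2N array.

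Among the metalloproteinases, MMP7 had 1 probe set, which gave 28.4 in control cells, 77.2 with LATS2 and 44.6 with LATS2N. The LATS2 array was the only one above the floor, so MMP7 was at least 1.53-fold higher there than on each of the other arrays. That log2 ratio of 0.61 was 1.39 SDs between probe sets for LATS2 against control. The LATS2N and control signals both lay below the floor and give no ratio. MMP7 was the only 1 of the 8 genes whose highest signal was on the LATS2 array.

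MMP14 had 4 probe sets that did not go the same way. The brightest gave 315.2 in control cells, 320.0 with LATS2 and 348.0 with LATS2N, values that lay within 1 SD between probe sets of each other. The next read 129.3, 52.1 and 60.6, which puts LATS2 2.48-fold and LATS2N 2.13-fold below control. A further one read 76.2, 32.6 and 78.2, at least 1.51-fold lower than control on the LATS2 array. The dimmest stayed below the floor on all 3 arrays. All MMP14 probe sets but the brightest carry the suffix for possible shared targets. The direction of MMP14 therefore depended on the probe set read, and no single direction is given for it.

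The other metalloproteinase genes were dim. All 16 listed had a probe set with 1 symbol, 8 of them passed the floor in LATS2 or control cells, and none was called in any comparison. For LATS2 against control 4 were below 0 and 4 above, with a median log2 ratio of 0.01, or 0.44 with the floor at the 25th percentile. For LATS2N against control the median was 0.12. For LATS2 against LATS2N 9 passed the floor, 6 below 0 and 3 above, with a median of -0.36. That median was -0.04 with the floor at the 25th percentile. It was -0.05 without probe sets of possible shared targets and 0 with the median over probe sets. The 2 brightest on this list were MMP9, a gelatinase, and the membrane type MMP16. MMP9 read 156.6, 109.0 and 155.9 with empty vector, LATS2 and LATS2N, and MMP16 read 120.8, 126.4 and 131.0 at its brightest probe set. A dimmer MMP16 probe set read 57.7, 68.7 and 135.2, a log2 ratio of 1.23 for LATS2N against control. The size of that difference therefore depended on the probe set read. Genes for the collagenases MMP1, MMP8 and MMP13 and the stromelysins MMP3 and MMP10 were below the floor on every array. MMP15, a membrane-type relative of MMP14 chosen after its values were seen, read 31.6, 98.8 and 54.9, at least 1.96-fold higher than control on the LATS2 array.

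TIMP1, the secreted inhibitor, gave 1604 in control cells, 1125 with LATS2 and 1747 with LATS2N from its 1 probe set. The LATS2 array was the lowest and the other arrays lay close together. Its log2 ratio was -0.51 for LATS2 against control (1.43-fold lower, 2.85 SDs between probe sets), 0.12 for LATS2N against control (0.80 SDs) and -0.64 for LATS2 against LATS2N (1.55-fold lower, 4.07 SDs). None of these reached the call.

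TIMP2, a relative that also takes part in pro-MMP2 activation by MMP14, had its highest signal with LATS2. Its brightest probe set gave 3117 in control cells, 4156 with LATS2 and 3204 with LATS2N, and all 3 of its probe sets were highest on the LATS2 array. Of the 9 listed protease inhibitors, 8 reached the floor and none was called, with a median log2 ratio of -0.16 for LATS2 against control and -0.12 for LATS2 against LATS2N. The brightest of them, SPINT2, which inhibits membrane serine proteases, read 11726, 10261 and 10616. Of 11 other pericellular proteases 10 reached the floor, none was called and the medians were 0.05 and -0.05. CTSB, the lysosomal protease cathepsin B, and ADAM9, a membrane metalloproteinase, were the brightest of these; CTSB read 10902, 12296 and 12868, and ADAM9 read 4406, 4073 and 4440.

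**Figure D2:**
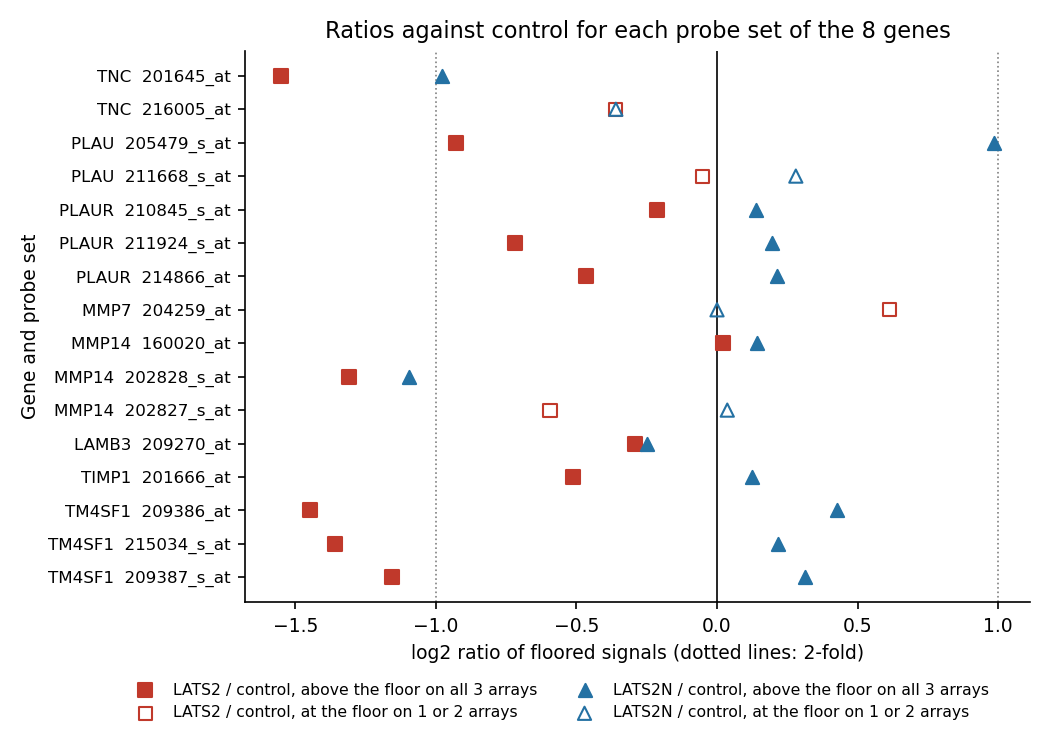
Log2 ratio of floored signals against control for the 16 probe sets of the 8 genes that were above the floor on at least 1 array, with LATS2 as squares and LATS2N as triangles; open marks have 1 or 2 arrays at the floor, and the dotted lines mark 2-fold. The 3 TM4SF1 probe sets lie together at -1.45 to -1.15 for LATS2, whereas the MMP14 probe sets lie apart, from -1.31 to 0.02.

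TNC had the largest ratio of the 8 genes against control. Its bright probe set gave 3636 in control cells, 1241 with LATS2 and 1846 with LATS2N. The control array was well above both construct arrays, and LATS2 was the lowest. The log2 ratio was -1.55 for LATS2 against control (8.63 SDs between probe sets), where TNC ranked 17 from the lowest of 13186 genes. It was -0.98 for LATS2N against control (6.37 SDs), where TNC ranked 87 of 13245 and was just short of the call, and -0.57 for LATS2 against LATS2N (1.49-fold, 3.67 SDs). Both ratios against control rest on the same control array.

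The other TNC probe sets were dim and add little. One gave 64.8 in control cells, 35.3 with LATS2 and 29.1 with LATS2N, at least 1.28-fold lower than control on each construct array. The other stayed below the floor on every array. With the median over the 3 probe sets the log2 ratio for LATS2 against control was -0.36 and TNC was not called. Of the 13 other matrix and tenascin genes with a probe set, TNXB and TNN among them, 9 reached the floor against control and none was called, with a median log2 ratio of -0.03 for LATS2 and -0.25 for LATS2N. The latter turned to 0.28 with no floor, 0.02 with the floor at the 25th percentile and 0.09 without probe sets of possible shared targets, and was 0 with the median over probe sets. The brightest were the basement membrane collagen chains COL4A1, which read 2774, 2724 and 2250 with empty vector, LATS2 and LATS2N, and COL4A2, which read 2265, 1958 and 1904.

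LAMB3 gave 1503 in control cells, 1226 with LATS2 and 1265 with LATS2N from its 1 probe set. The construct arrays lay close together and below control. The log2 ratio was -0.29 for LATS2 (1.63 SDs between probe sets) and -0.25 for LATS2N (1.62 SDs) against control, and -0.04 between the constructs (0.28 SDs). Of 8 other laminin chains read here, 5 reached the floor and none was called; the brightest, LAMA5, read 1824, 2176 and 2039, and LAMB1 read 1259, 1229 and 1110.

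TM4SF1, a 4-pass membrane protein found at the surface of many carcinoma cells and of endothelial cells, was lower on the LATS2 array in all 3 of its probe sets above the floor. The brightest gave 787.6 in control cells, 288.5 with LATS2 and 1058 with LATS2N, the next read 322.8, 126.0 and 374.8, and the third read 233.1, 104.7 and 289.2. In each the LATS2 array was the lowest and the LATS2N array the highest. Against control, LATS2 was 2.73-fold, 2.56-fold and 2.23-fold lower in these probe sets, and LATS2N was 1.34-fold, 1.16-fold and 1.24-fold higher. LATS2 against LATS2N gave 3.67-fold, 2.98-fold and 2.76-fold lower. The brightest of these probe sets carries no suffix for possible shared targets, and the others above the floor do. At the brightest the log2 ratios of -1.45 and -1.87 were 5.39 and 7.69 SDs between probe sets. TM4SF1 ranked 23 from the lowest of 13186 genes for LATS2 against control and 8 of 13175 for LATS2 against LATS2N, next to PLAU. The other 2 TM4SF1 probe sets were below the floor on all 3 arrays.

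Relatives of TM4SF1 were also read. TM4SF4, TM4SF5, TM4SF18 and TM4SF20 were below the floor on every array. The 5 tetraspanins on the list reached the floor, none was called, and their log2 ratios for LATS2 against control lay between -0.23 and 0.09. The brightest, CD9, read 28109, 28324 and 30828 with empty vector, LATS2 and LATS2N, and CD81 read 7817, 8304 and 7818.

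Receptors for tenascin and laminin held the single called gene among the related lists. SDC4, which encodes syndecan-4, a heparan sulfate proteoglycan that acts with integrins in cell adhesion to fibronectin, gave 5385 in control cells, 2749 with LATS2 and 5961 with LATS2N. The LATS2 array stood apart, 1.96-fold below control and 2.17-fold below LATS2N, from 1 probe set, and the order of the arrays was that of TM4SF1. The brightest integrin subunits of the list were ITGB1, which read 14840, 16617 and 17686, and ITGA6, which read 5221, 4343 and 4865. Another ITGA6 probe set read 1303, 839.6 and 1065. Its log2 ratio for LATS2 against control was -0.63, beside -0.27 at the brightest. Of 15 listed receptors 13 had a probe set with 1 symbol, 11 passed the floor in LATS2 or control cells, and the median of their ratios on the log2 scale was 0.11 for LATS2 over control. Leaving out probe sets with possible shared targets turned it to -0.17, so the list has no settled direction. Among integrins chosen after their values were seen, ITGA5, the fibronectin receptor subunit, read 371.8, 240.5 and 386.4, and ITGA9, a subunit that binds tenascin C, read 46.8, 92.4 and 67.2, at least 1.83-fold higher than control with LATS2.

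**Figure D3:**
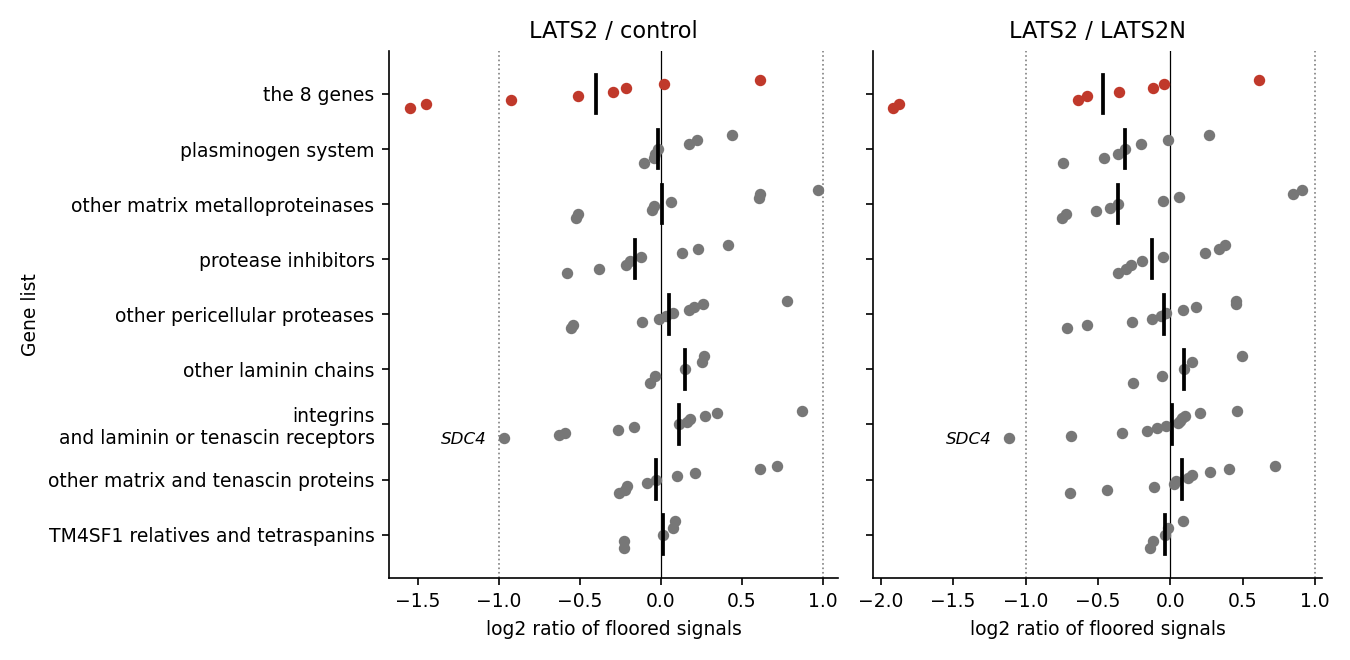
Log2 ratio of floored signals for LATS2 against control (left) and LATS2 against LATS2N (right), 1 point per gene that reached the floor, with the 8 genes in red, the related gene lists in grey, a black bar at each median and dotted lines at 2-fold. SDC4 is the only gene of the grey lists past 2-fold, at -1.12 in the right panel.

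As a group, 2 of the 8 genes were called lower and none higher for LATS2 against control, where 0.842% of 13186 genes were called lower and 0.963% higher. For LATS2N against control, 7 of the 8 reached the floor and none was called in either direction, where 0.566% of 13245 genes were called lower and 0.944% higher. For LATS2 against LATS2N, 2 were called lower and none higher, where 1.00% of 13175 genes were called lower and 0.592% higher. The called genes were TNC and TM4SF1 in the first comparison and PLAU and TM4SF1 in the last. At a 1.5-fold limit, LATS2 against control had 3 of the 8 lower (PLAU added) and MMP7 higher, beside 4.41% and 5.85% of all genes. At that limit LATS2N against control had TNC lower and PLAU higher, beside 3.27% and 4.86%. LATS2 against LATS2N then had 3 lower (TIMP1 added) and MMP7 higher, beside 5.07% and 4.27%. Since the genes were chosen from these ratios, nothing is read from the shares. The 8 genes had a median log2 ratio of -0.40 for LATS2 against control and -0.46 for LATS2 against LATS2N, and that of the 7 was 0.14 for LATS2N against control.

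The order of the 3 arrays within a gene was set out for the genes above the floor on every array, which leaves out MMP7. Of the 7 that were above the floor on every array, 6 had their lowest signal on the LATS2 array, an order found in 30.6% of the 11534 genes above the floor on every array. PLAU, PLAUR, TIMP1 and TM4SF1 were lowest on LATS2 and highest on LATS2N, as were 15.6% of those genes. TNC and LAMB3 were lowest on LATS2 and highest on control, as were 14.9%. MMP14 was lowest on control at its brightest probe set. Some of these orders rest on steps under 1 SD between probe sets: LATS2 against LATS2N for LAMB3 (0.28 SDs), and LATS2N against control for TIMP1 (0.80 SDs) and PLAUR (0.91 SDs). Counted by probe set, 11 of the 12 probe sets of the 8 genes above the floor on every array were lowest on LATS2, against 32.6% of 20934 probe sets. Several of the 12 read 1 transcript and are not independent. Since the genes were chosen with these signals known, nothing is read from the shares of either count.

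Genes with the nearest pattern were sought for TNC, PLAU and TM4SF1, by the distance between pairs of log2 ratios against control, over 3 arrays, among genes within 1 log2 unit of mean signal. For TNC the nearest were TAF15 (distance 0.40; signals of 2686 with empty vector, 1147 with LATS2 and 1159 with LATS2N) and AHNAK (0.52; 1880, 904.6 and 1058), out of 3469 genes. For PLAU they were PHLDA3 (0.37; 129.1, 85.0 and 225.8) and ABCC3 (0.38; 124.9, 81.5 and 213.1), out of 2426. For TM4SF1 they were ADM (0.28; 524.9, 161.1 and 646.8) and EGLN3 (0.37; 523.0, 216.2 and 560.0), out of 3641. No gene lay within 0.25 of any of the 3, and a pattern over 3 arrays holds only 2 ratios, so likeness here is a description of these arrays.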

How the data were processed

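Affymetrix signals of 54675 probe sets were analysed on 3 arrays, made from 6 ug of total RNA per the labels' protocols. The deposited values are linear intensities from MAS5, a program named, without version or settings, in the submitters' processing notes. With 2% of values trimmed at each end, every array averaged 500.1, so the arrays had been scaled to a common target. No detection calls were used, and the number of arrays limits the precision.

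Symbols came from the platform annotation: 41091 probe sets had 1 symbol, 1801 had several, 11721 were not listed and 62 were manufacturer's controls. Symbols were updated through gene identifiers to the RefSeq table of GRCh38.p14, which matched 41037. Each gene was read from its brightest probe set, by mean log2 signal. Signals were floored at 50.5 and log2 ratios were called at 2-fold; with 1 array per group no test was made. The spread between probe sets is a robust SD from the 2 brightest probe sets of a gene with their dimmer signal in the same range. The genes named are the 8, LATS2, every called gene and the 2 brightest of each related list, and the 2 nearest in pattern; every other gene named, such as list members below the floor and cell type markers, was chosen after its values were seen. The 8 genes, lists and settings were chosen with earlier results of these data known, and the motifs after the signals were seen. Alternatives were other floors, normalisations, probe set rules and a 1.5-fold call. Python 3 with pandas and NumPy was used.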

Additional observations from a re-analysis of the deposited data

How the results depend on the processing

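Leaving out a replicate was not possible, and no paired analysis was possible because each group holds 1 array. Of 69 recomputed counts and medians of the 8 genes, 59 kept their value within the limit set (1.5 times for a count, the SD between probe sets for a median). For LATS2 against control, 1 gene in place of 2 was called lower with the median over probe sets, where TNC had a log2 ratio of -0.36 because its 2 other probe sets are at or near the floor; 1 gene, MMP7, was called higher at 1.44 both with no floor and with the floor lowered to the 25th percentile, and 1 at a 1.5-fold call. For LATS2N against control, 1 gene was called higher with arrays centred on their median, and at a 1.5-fold call 1 was lower and 1 higher. For LATS2 against LATS2N, 1 gene in place of 2 was called lower with a floor at the 75th percentile and without probe sets of possible shared targets, which removes the PLAU probe sets, and 1 was called higher at 1.5-fold. The median was taken over those of the 8 genes with a value in a setting, which were not always the same. PLAU, MMP7 and MMP14 had none with the floor at the 75th percentile. PLAU had none without probe sets of possible shared targets, and MMP7 none for LATS2N against control with the main floor. The median lay between -0.51 and -0.40 for LATS2 against control and between 0.12 and 0.16 for LATS2N against control. For LATS2 against LATS2N it lay between -0.57 and -0.40. The ends at -0.51 and -0.57 came from settings that leave genes out. No called ratio of the 8 genes changed sign. Of 150 single ratios, 16 moved by more than the SD between probe sets, most of them with the median over probe sets, and of 243 medians of related lists 27 did. Part of the 150 could not move, nor could part of the 69 counts and medians built on them. A lower floor leaves ratios of signals above the floor unchanged. The probe set rules leave MMP7, LAMB3 and TIMP1, read from 1 probe set each, unchanged. Dim signals limit PLAU, MMP7 and most metalloproteinases.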
